A study of Homo sapiens with 12 samples.

Results

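A set of 5 helix-loop-helix genes was followed in DU145, a human prostate carcinoma cell line: ATOH8, HES1, BHLHE40, TCF24 and ID3, out of the 2984 genes present in either of the study's 2 expression tables. They were taken by symbol, and they had been chosen because earlier readings of the same data showed them to differ between the groups. The differences between groups below are therefore descriptions of these libraries and carry no test. All 5 were among the 1424 genes of the ATOH8 overexpression table and 4 (all but HES1) were among the 1810 genes of the RSL3 table.

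The study used RNA-seq on 12 libraries, 3 in each of 4 groups. In the first experiment, DU145 cells labelled wild type received either the solvent DMSO or RSL3 for 24 h; RSL3 inactivates GPX4, the enzyme that clears lipid peroxides, and so triggers ferroptosis. In the other, DU145 cells carried a control construct (oeCTRL) or overexpressed ATOH8 (oeATOH8), with no RSL3 named in their labels. The dose of RSL3, the vector and promoter behind the overexpression, and whether the cells were a pool or 1 clone are not given in the sources used here.

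Helix-loop-helix proteins pair through a shared dimerization domain. Most also have a basic region that reads a short DNA word, the E-box, and usually do so as a dimer with a broadly expressed E protein (TCF3, TCF4 or TCF12). ATOH8 is a distant relative of the atonal family of differentiation factors and has been described as a target of BMP and SMAD signalling in liver and endothelial cells. HES1 is the classical Notch-induced repressor, which binds N-boxes, including those of its own promoter. BHLHE40 (DEC1) is a repressor tied to hypoxia and the circadian clock that prefers the E-box CACGTG. ID3 has no basic region and holds E proteins away from DNA, and its gene is a standard BMP target. TCF24 is a little-studied member of the tissue-restricted class.

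The sequence just around the gene start is shown for ATOH8, HES1 and BHLHE40 because these 3 windows hold the words that their own class of protein reads. Each is 300 bases of RefSeq GRCh38.p14 on the plus strand, 250 before the gene start and 50 from it on. Capitals mark E-boxes (CANNTG) in ATOH8 and BHLHE40, and in HES1 they mark N-boxes (CACNAG or, on the other strand, CTNGTG) together with TGGGAA, a word of sites for the Notch effector RBPJ that was also searched as TTCCCA, its other strand. The windows lie at chr2:85753741-85754040 (ATOH8), chr3:194135898-194136197 (HES1) and chr3:4979187-4979486 (BHLHE40).
ATOH8: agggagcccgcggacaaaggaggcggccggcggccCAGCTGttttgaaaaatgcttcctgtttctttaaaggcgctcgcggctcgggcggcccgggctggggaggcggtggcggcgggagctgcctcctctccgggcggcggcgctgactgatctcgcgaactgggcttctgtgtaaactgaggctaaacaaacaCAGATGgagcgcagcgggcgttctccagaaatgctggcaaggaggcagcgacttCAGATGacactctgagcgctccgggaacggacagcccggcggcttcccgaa
HES1: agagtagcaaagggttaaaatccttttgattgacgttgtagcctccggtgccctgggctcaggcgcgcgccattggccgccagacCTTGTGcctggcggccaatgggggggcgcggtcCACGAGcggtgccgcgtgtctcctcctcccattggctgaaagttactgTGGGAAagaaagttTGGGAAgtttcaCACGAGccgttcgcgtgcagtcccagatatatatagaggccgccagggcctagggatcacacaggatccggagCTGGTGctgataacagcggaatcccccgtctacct
BHLHE40: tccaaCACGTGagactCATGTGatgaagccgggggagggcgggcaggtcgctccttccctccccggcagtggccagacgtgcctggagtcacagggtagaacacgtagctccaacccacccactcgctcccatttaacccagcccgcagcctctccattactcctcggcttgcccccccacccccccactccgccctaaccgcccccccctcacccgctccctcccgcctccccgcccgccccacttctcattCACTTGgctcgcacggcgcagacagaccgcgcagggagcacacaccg

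Distances here are from the RefSeq start, and other gene models begin elsewhere. GENCODE begins ATOH8 at 85751344 and BHLHE40 at 4979116, so both windows lie inside the GENCODE genes. The counted ATOH8 row begins at 85753786, so both CAGATG words below lie inside it. The ATOH8 window held 3 E-boxes, CAGCTG at 215 bases before the RefSeq start and CAGATG at 55 and 1 bases before it. Of the 35116 RefSeq windows of this length, 68.7% held at least 1 CANNTG and 15.3% held at least 3. A pair of CAGATG words (or CATCTG, its other strand), as in ATOH8, stood in 1.63%. The HES1 window held no CANNTG. It had 4 N-boxes, a number reached by 0.293% of all windows (38.0% had at least 1), and 2 TGGGAA words, a number reached by 3.80% (24.0% had at least 1). The BHLHE40 window held 3 E-boxes, of which CACGTG at 245 bases before the start is present in 7.26% of windows, followed by CATGTG at 234 before and CACTTG at 4 bases after it (distances are those of a word's first base). None of these words was in the ID3 window (chr1:23559452-23559751, minus strand). A match is only a run of letters, and no binding was measured in these libraries.

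**Figure D1:**
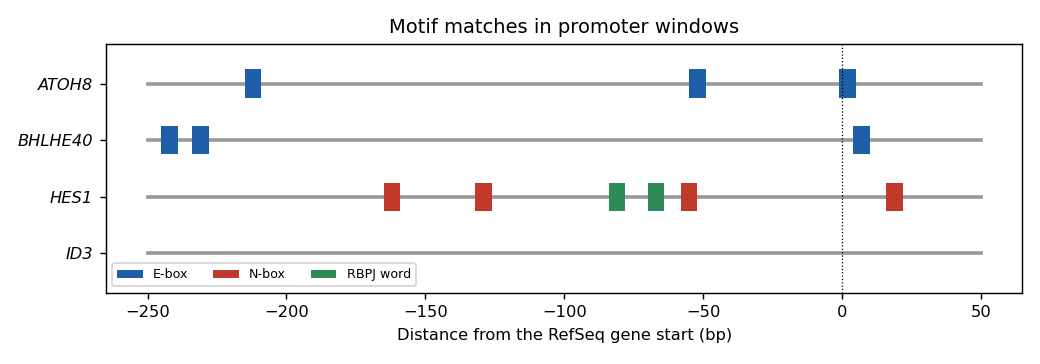
Position of the searched words in the promoter windows of 4 of the 5 genes, as distance from the RefSeq gene start in bases. Each mark is 1 match on either strand: 3 E-boxes each in ATOH8 and BHLHE40, 4 N-boxes and 2 RBPJ words in HES1, and none in ID3.

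Some features of the libraries touch every value below. Both tables hold only genes that the authors had called changed, so a difference between groups is the normal state of a row: the groups did not overlap for 86.4% of the rows of the RSL3 table (48.5% higher and 37.8% lower) and 99.6% of the rows of the overexpression table (41.4% higher and 58.3% lower). By the mean alone, 52.9% of RSL3 rows were higher and 47.1% lower, and 41.4% of overexpression rows were higher and 58.6% lower. The rows held 2523743 to 3096832 reads per library in the RSL3 experiment and 1508188 to 2226518 in the overexpression experiment. In the RSL3 experiment replicate 1 stood apart in both groups: its counts differed from those of replicates 2 and 3 with a chi-square of 59.1 to 101 per degree of freedom, against 1.64 (DMSO) and 1.8 (RSL3) between replicates 2 and 3. Values without replicate 1 of both groups are therefore given for the 4 genes of the set in that table and for NPAS1, NOTCH4 and BMP7. The labels do not say whether replicates were separate cultures, so every spread and p-value is that between these libraries and may be technical. In both experiments, fewer cells expressing a gene and less RNA per cell cannot be told apart.

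A list of 5 epithelial and 5 luminal prostate markers was looked up. Only genes called changed are listed, so this cannot check the labelled epithelial identity. EPCAM and CDH1 were listed in the RSL3 table and KRT8 and CDH1 in the overexpression table, all with reads in every library, and none of the luminal markers was listed in either. The listed epithelial markers were lower in the treated group of both experiments, as were BHLHE40 and TCF24, whereas ATOH8 and ID3 were higher. The summed reads of these markers, not normalised for depth, were 638 to 1152 in DMSO and 69 to 328 in RSL3. They were 16611 to 17667 in oeCTRL and 6149 to 6531 in oeATOH8. CDH1 (E-cadherin) fell 4.34-fold with RSL3 (limma adjusted p = 0.0175) and 7.55-fold with ATOH8 (edgeR adjusted p = 5.67e-10). Of 11 erythroid markers, the 3 globin genes HBA1, HBA2 and HBB were listed in the overexpression table, with 4 to 13 summed reads in oeCTRL libraries (HBB at 0 in all 3) and 56662, 3141 and 13206 in oeATOH8 replicates 1, 2 and 3. A fibroblast marker among the 5 fibroblast and endothelial markers was listed there: COL1A2, at 0, 0 and 5 reads in the control libraries and at 92, 72 and 114 with ATOH8. With RSL3, 1 of 5 immune markers was listed, CD68 (902 to 1462 reads in DMSO, 1596 to 2963 in RSL3; the normalised groups overlapped, limma adjusted p = 0.0538), and 1 of 5 neural markers, SYP (33 to 42 and 54 to 80). The part of these markers in the values below was not tested.

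Per kilobase of GENCODE exon, ATOH8 was the scarcest of the 4 listed genes in DMSO, and it was far more abundant after RSL3. Its normalised counts were 26.4, 35.1 and 40.1 in DMSO replicates 1 to 3 and 358, 429 and 470.2 in RSL3 replicates 1 to 3. Every RSL3 library was far above every DMSO library, although the DMSO values rested on 24, 46 and 46 reads. The means were 33.9 ± 6.97 and 419 ± 56.9 (SD, n = 3), a 12.4-fold difference, or 3.60 on the log2(value + 1) scale (SE 0.26). Of the 958 genes with a higher mean in RSL3, ATOH8 had the 5th largest fold, and among the 821 of them with a mean of at least 50 it had the 2nd. Taken within a replicate number, RSL3 was 13.6-, 12.2- and 11.7-fold above DMSO, so the library pair that stood apart gave about the same ratio as the others, and without replicate 1 of both groups the difference was 11.9-fold. The gene lies at chr2:85753786-85791383 in the file's GRCh38 coordinates. The short miRNA gene MIR6071 (78 bases) lies inside it on the other strand, and whether counting used strand is not given in the sources used here.

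In the overexpression experiment ATOH8 is the manipulated gene, and it checks the labels. Its reads were 13, 10 and 4 in oeCTRL and 76508, 72569 and 76043 in oeATOH8. All 3 libraries labelled oeATOH8 carried the gene far above the control level, with little spread. The scaled counts were 9.02 ± 4.40 in oeCTRL and 74227 ± 389 in oeATOH8 (SD, n = 3), an 8225-fold difference whose size rests on the few control reads. Leaving out 1 oeCTRL library moved it between 6466-fold (without replicate 3) and 10262-fold (without replicate 1). Gene-level counts do not separate the introduced copy from the cell's own ATOH8.

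ID3 (chr1:23557926-23559501, minus strand) was higher in both experiments. With RSL3, its normalised counts were 3313, 2043 and 1961 in DMSO and 4059, 5591 and 5562 in RSL3. The groups did not overlap, but replicate 1 was the highest of the DMSO libraries and the lowest of the RSL3 libraries. The means were 2439 ± 758 and 5070.3 ± 876 (SD, n = 3), a 2.08-fold difference (log2 1.08, SE 0.26). It was 2.78-fold without replicate 1 of both groups, and within replicate numbers it was 1.23-, 2.74- and 2.84-fold. With ATOH8 overexpression the scaled counts were 847, 775 and 759 in oeCTRL and 2514, 2810.5 and 2407 in oeATOH8. All 3 oeATOH8 libraries were well above the controls, with means of 794 ± 46.6 and 2577 ± 209 (SD, n = 3), or 3.25-fold (log2 1.70, SE 0.08).

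HES1 (chr3:194136145-194138732) was listed in the overexpression table alone. Its scaled counts were 1179, 1265 and 1044 in oeCTRL and 148, 149.9 and 166 in oeATOH8. The lowest control was several times the highest oeATOH8 library. The means were 1163 ± 112 and 155 ± 9.90 (SD, n = 3), 7.52-fold lower with ATOH8 (log2 −2.91, SE 0.11), which placed HES1 30th of the 835 genes with a lower mean.

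BHLHE40 (chr3:4979420-4985323) was lower in both experiments, by different amounts. Its normalised counts were 1373, 879 and 825 in DMSO and 408, 649 and 687 in RSL3. The groups did not overlap, and replicate 1 was again the extreme of both, highest in DMSO and lowest in RSL3. The means were 1025 ± 302 and 581 ± 151 (SD, n = 3), 1.76-fold lower with RSL3 (log2 −0.82, SE 0.28). Without replicate 1 of both groups the difference was 1.28-fold, and within replicate numbers it was 3.36-, 1.35- and 1.20-fold, so most of it came from replicate 1. In the overexpression experiment the scaled counts were 1808, 1895 and 1808 in oeCTRL and 253, 344 and 308 in oeATOH8. No library of one group came near the other. The means were 1837 ± 50.2 and 301 ± 45.8 (SD, n = 3), 6.09-fold lower (log2 −2.61, SE 0.11). An antisense gene, BHLHE40-AS1, overlaps the first 846 bases of BHLHE40 in GENCODE and is in neither table.

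TCF24 was lower in both experiments at a low level of counting. In the RSL3 experiment its reads were 18, 41 and 47 in DMSO and 2, 5 and 3 in RSL3. As normalised counts these were 19.8, 31.3 and 41.0 against 2.90, 4.69 and 2.82, with no overlap. The means of 30.7 ± 10.6 and 3.47 ± 1.06 (SD, n = 3) differed 8.86-fold (log2 −2.79, SE 0.43), the 19th largest fold of the 852 genes with a lower mean, and 9.64-fold without replicate 1 of both groups. In the overexpression experiment the scaled counts were 191, 214 and 147 in oeCTRL and 30.2, 32.8 and 54.3 in oeATOH8. Replicate 3 was the lowest control and the highest oeATOH8 library, and the groups still did not overlap. The means were 184 ± 34.2 and 39.1 ± 13.3 (SD, n = 3), 4.71-fold lower (log2 −2.23, SE 0.29).

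**Figure D2:**
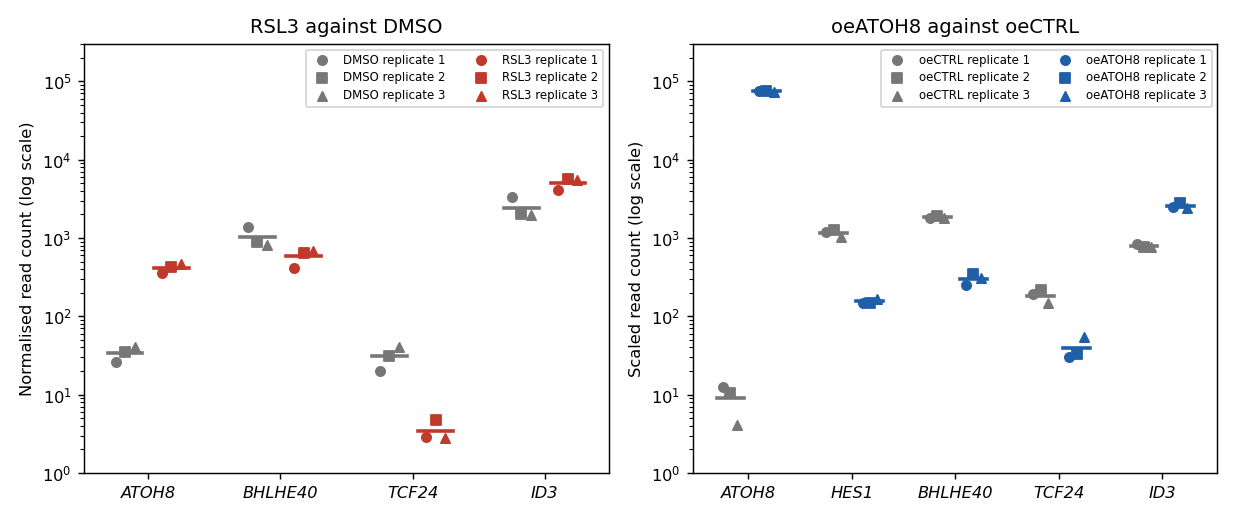
Level of each gene in each library (log axis; normalised counts in the RSL3 experiment and scaled counts in the overexpression experiment); points are libraries and bars are group means. In both experiments ATOH8 and ID3 are higher and BHLHE40 and TCF24 lower in the treated group, with no overlap between groups, and the BHLHE40 and ID3 points of DMSO and RSL3 replicate 1 lie at the extremes.

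No gene of the set had overlapping groups in either table, 4 of 4 and 5 of 5, beside 86.4% and 99.6% of all rows (RSL3: 48.5% higher and 37.8% lower; overexpression: 41.4% higher and 58.3% lower), and since the genes were chosen on these contrasts nothing is read from that count. The sizes can be set against the tables' typical row. The median size of the log2 fold change over the rows tested (1732 of 1810 and all 1424) was 0.90 in the RSL3 table and 1.33 in the overexpression table. In the RSL3 table ATOH8 and TCF24 were far beyond that median, ID3 was above it, and BHLHE40 (−0.82) was below it, ranking 644th of 852 lower genes. In the overexpression table all 5 exceeded it. These sizes depend on the scaling between groups. With RSL3, ID3 was 0.78 and BHLHE40 −1.12 under relative log expression scaling. The median size was not recomputed under that scaling, so their place against it there is not known. Under relative log expression scaling over the listed genes the overexpression values of HES1, BHLHE40, TCF24 and ID3 were −2.0, −1.70, −1.32 and 2.61, with the same directions. The 4 genes present in both tables had the same direction in both. Over all 250 shared genes (13.8% of the rows of the RSL3 table and 17.6% of those of the overexpression table), 78 were higher in both, 122 were lower in both and 50 went opposite ways, so that 80% had the same direction.

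**Figure D3:**
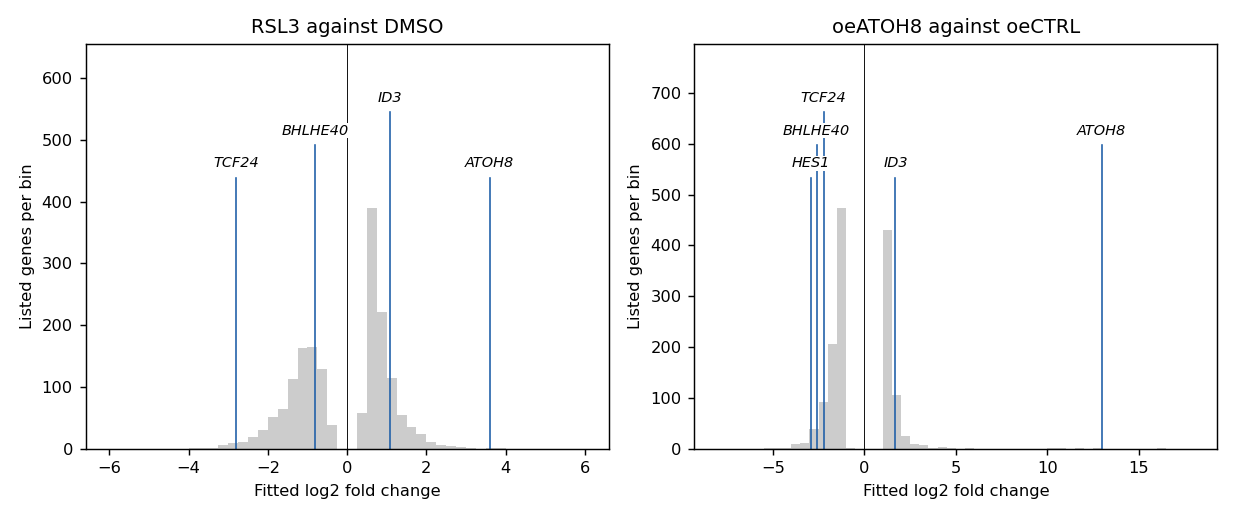
Distribution of the log2 fold change over the rows tested in each table (horizontal axis, log2; vertical axis, number of genes), with lines at the 5 genes. Rows with small changes are missing because the tables hold only genes called changed by the authors; ATOH8 lies at 3.60 and 12.98, and BHLHE40 at −0.82 lies within the bulk of the RSL3 table.

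Levels were compared between genes only per kilobase of exon (GENCODE exon lengths). In DMSO, counts per kilobase fell in the order ID3 (1357 ± 422), BHLHE40 (267 ± 78.7), TCF24 (11.9 ± 4.11) and ATOH8 (5.58 ± 1.15), with no overlap between neighbours. In RSL3 the order was ID3 (2822 ± 488), BHLHE40 (152 ± 39.4), ATOH8 (68.9 ± 9.37) and TCF24 (1.34 ± 0.41). Thus ATOH8 and TCF24 traded places per kilobase and ID3 stayed at the top. The DMSO order of ATOH8 and TCF24 rests on their exon lengths, 6.076 and 2.589 kb. Their normalised counts there were similar, 33.9 ± 6.97 and 30.7 ± 10.6 (SD, n = 3). The RSL3 rows were not counted on these GENCODE models, so that order is uncertain. In oeCTRL, HES1 (564 ± 54.1), BHLHE40 (479 ± 13.1) and ID3 (442 ± 25.9) lay close together, the ranges of BHLHE40 and ID3 touching, and TCF24 (71.1 ± 13.2) and ATOH8 (1.49 ± 0.72) were far below. In oeATOH8 the order was ATOH8 (12216 ± 64.0), ID3 (1434 ± 116), BHLHE40 (78.6 ± 11.9), HES1 (74.9 ± 4.80) and TCF24 (15.1 ± 5.12), where BHLHE40 and HES1 overlapped (each SD over n = 3). ATOH8 was divided by 6.076 kb of exon, and the length of the introduced copy is not given. Its level per kilobase in oeATOH8 is therefore uncertain.

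A ratio of 2 genes within one library does not depend on how libraries are scaled. ID3 to BHLHE40, per kilobase, was 5.15, 4.96 and 5.08 in DMSO and 21.2, 18.4 and 17.3 in RSL3. The DMSO values were nearly equal, replicate 1 included, although both genes were at their DMSO extreme there. In the overexpression experiment the ratio was 1.00, 0.874 and 0.896 in oeCTRL and 21.2, 17.5 and 16.7 in oeATOH8. The mean ratio went from 5.06 ± 0.09 to 19.0 ± 2.03 with RSL3 and from 0.923 ± 0.067 to 18.5 ± 2.42 with ATOH8 (SD, n = 3). The tables were made separately and with different gene models, so the closeness of the treated values across experiments is a description only.

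The ATOH8 to TCF24 ratio, between the pair of tissue-restricted factors, was 0.488 ± 0.076 in DMSO and 54.2 ± 16.2 in RSL3, and 0.0202 ± 0.0081 in oeCTRL and 866 ± 252 in oeATOH8 (SD, n = 3). ATOH8 to ID3 was 0.0045 ± 0.0019 in DMSO and 0.0246 ± 0.0017 in RSL3. ID3 thus still exceeded ATOH8 by far in RSL3. In oeATOH8 the ratio was 8.55 ± 0.64, against 0.0033 ± 0.0015 in oeCTRL. The size of each oeATOH8 ratio that includes ATOH8 is uncertain, because the length of the introduced copy is not given. The RSL3 ratio to TCF24 rests on 2, 5 and 3 TCF24 reads. Each oeCTRL ratio that includes ATOH8 rests on 13, 10 and 4 ATOH8 reads, so these sizes are uncertain too. The HES1 to BHLHE40 ratio was 1.18 ± 0.09 (1.07 to 1.24) in oeCTRL and 0.968 ± 0.142 (0.811 to 1.09) in oeATOH8. The mean was lower with ATOH8, and the ranges just overlapped.

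**Figure D4:**
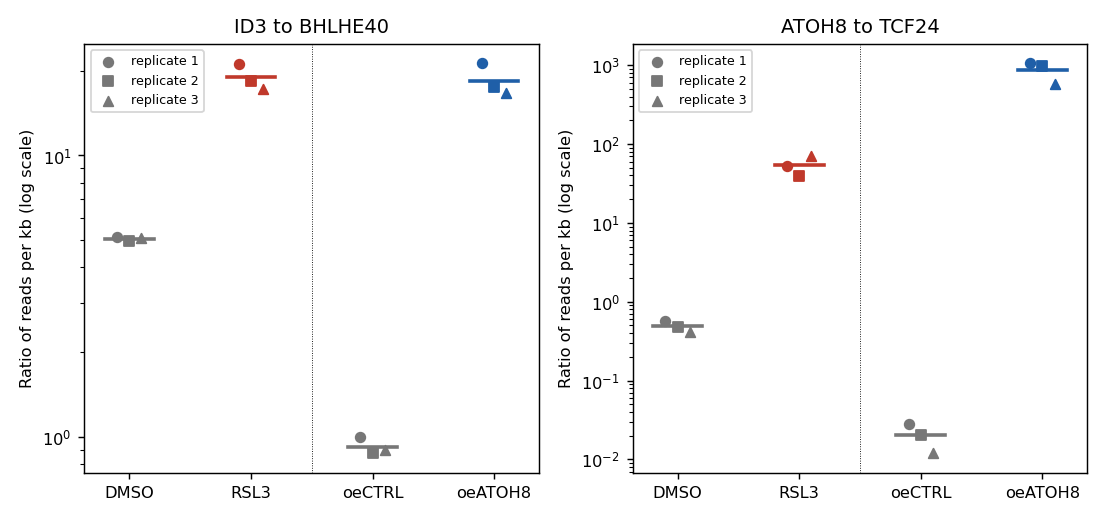
Ratio of 2 genes per kilobase within each library (log axis), by group, for ID3 to BHLHE40 and ATOH8 to TCF24; points are libraries and bars group means. ID3 to BHLHE40 is 4.96 to 5.15 in DMSO and 17.3 to 21.2 in RSL3, and 0.874 to 1.00 in oeCTRL and 16.7 to 21.2 in oeATOH8, independent of the scaling between libraries.

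The rest of the helix-loop-helix class was read from a list of 112 genes, of which 8 were in the RSL3 table and 9 in the overexpression table. None of the 3 E proteins was listed in either table, and of the 4 ID genes ID3 alone was. A gene that is not listed has no value here, and whether it was unchanged or filtered out cannot be told. Among all rows tested, 82% passed in the RSL3 table (43.1% higher and 38.9% lower; limma, adjusted p under 0.05) and 100% in the overexpression table (41.4% higher and 58.6% lower; edgeR's quasi-likelihood test), so that a pass is the usual result for a row. Relative log expression scaling over the listed genes turned the share of passing genes that were higher from 52.6% to 28.8% with RSL3 and from 41.4% to 58.5% with ATOH8. The 4 other listed genes passed with RSL3. HEY2, a Notch-induced repressor related to HES1, rose 2.35-fold (limma adjusted p = 0.0339), from 10.3 ± 2.69 to 24.3 ± 2.54 normalised counts. NPAS1, a PAS-domain repressor, rose 2.56-fold (1.98-fold without replicate 1 of both groups; limma adjusted p = 0.0261), and MXD4, a MAX partner that opposes MYC, rose 1.43-fold (limma adjusted p = 0.0467). ARNT2, a PAS-domain dimerization partner, fell 1.58-fold (limma adjusted p = 0.0437). HEY2 and MXD4 did not pass when the libraries were rescaled over the listed genes. With ATOH8, HES7 (the segmentation-clock relative of HES1) rose 3.23-fold (edgeR adjusted p = 6.15e-07), MYC rose 2.70-fold (edgeR adjusted p = 1.73e-09), and LYL1, a blood-lineage factor, rose 2.28-fold (edgeR adjusted p = 0.00172). ARNT2 again fell, by 2.82-fold (edgeR adjusted p = 5.63e-09). The median log2 fold change of the 4 other listed genes, the 5 chosen genes left out, was 0.88 with RSL3 and 1.31 with ATOH8, beside 0.50 and −1.10 over all rows.

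Notch pathway genes, which include the usual inducers of HES1, were listed for 6 of 37 in each table. With RSL3, 3 of the 6 rose and 2 fell, beside 43.1% and 38.9% of all rows tested. LFNG, a glycosyltransferase that tunes Notch receptors, rose 7.24-fold, from 11.6 ± 5.45 to 84.3 ± 30.4 normalised counts (limma adjusted p = 0.0122), and NRARP, a feedback inhibitor induced by Notch, rose 2.26-fold (limma adjusted p = 0.0251), beside HEY2. The receptor NOTCH2 fell 1.70-fold (limma adjusted p = 0.0393) and the coactivator MAML3 fell 4.40-fold (limma adjusted p = 0.0315). NOTCH4 was at 13.6 ± 2.84 in DMSO and 37.2 ± 28.8 in RSL3, with overlapping groups (limma adjusted p = 0.0844); the 2.74-fold difference of the means was 1.59-fold without replicate 1 of both groups. With ATOH8, of the 5 listed genes other than HES1, 4 fell and 1 rose, beside 58.6% and 41.4% of all rows tested. The receptor NOTCH3 fell 2.67-fold, from 2043 ± 203 to 764 ± 33.2 scaled counts (edgeR adjusted p = 3.52e-08), the ligand DLL4 fell 2.13-fold (edgeR adjusted p = 0.00146), and the ubiquitin ligases DTX1 and DTX4 fell 4.32-fold and 2.13-fold. MAML3 rose 2.30-fold (edgeR adjusted p = 0.0163), a call lost without replicate 2 of either group (edgeR adjusted p = 0.0527 without oeCTRL replicate 2 and 0.0518 without oeATOH8 replicate 2). DLL4 and DTX4 did not pass under relative log expression scaling. Over the listed Notch genes, HES1 left out, the median of the log2 fold changes was 1.20 with RSL3 and −1.09 with ATOH8, beside 0.50 and −1.10 over all rows.

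BMP and SMAD genes, the upstream pathway of ID3, were listed for 6 of 40 with RSL3 and 4 of 40 with ATOH8, ID3 included. The inhibitory SMADs, which are themselves induced by the pathway, were among those that rose. SMAD6 rose 2.85-fold with RSL3, from 318 ± 53.6 to 905 ± 59.3 normalised counts (limma adjusted p = 0.0122), and SMAD7 rose 2.12-fold (limma adjusted p = 0.0165). The secreted BMP antagonist NOG rose 2.34-fold (limma adjusted p = 0.0261), a call that ended when the libraries were rescaled over the listed genes. The ligand BMP7 fell 6.83-fold (limma adjusted p = 0.0214) on 11 to 19 reads in DMSO, and was 4.49-fold lower without replicate 1 of both groups. The receptor BMPR2 was at 99.1 ± 56.6 in DMSO and 36.9 ± 17.0 in RSL3, with overlapping groups (limma adjusted p = 0.0707, and 0.00635 in the limma fit that blocks on replicate number). In the overexpression table, SMAD7 rose 2.48-fold (edgeR adjusted p = 3.13e-07), NOG rose 6.46-fold from 19.7 ± 11.8 to 127 ± 22.4 scaled counts (edgeR adjusted p = 4.71e-05), and the ligand BMP4 fell 2.43-fold (edgeR adjusted p = 0.00299). BMP4 did not pass under relative log expression scaling. Over the listed BMP and SMAD genes, ID3 left out, the median of the log2 fold changes was 1.08 with RSL3 and 1.31 with ATOH8, beside 0.50 and −1.10 over all rows.

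Of 23 circadian clock genes, the network in which BHLHE40 acts as a repressor, 2 were listed with RSL3 and 5 with ATOH8, BHLHE40 included. TEF, a transcription factor with clock-driven output, rose 1.96-fold with RSL3 (limma adjusted p = 0.0347) and fell 2.01-fold with ATOH8 (edgeR adjusted p = 0.000838). The other 3 also fell with ATOH8: the period gene PER3 by 4.27-fold (edgeR adjusted p = 0.00031), the nuclear receptor RORA by 2.35-fold (edgeR adjusted p = 3.5e-06) and the cryptochrome CRY2 by 2.16-fold (edgeR adjusted p = 0.000788). Under relative log expression scaling PER3 alone of these 4 passed. The median log2 fold change of the 4, BHLHE40 left out, was −1.17, beside −1.10 over all rows, where 58.6% of the rows tested fell. SCD, the fatty acid desaturase named in the series title, fell 2.79-fold with ATOH8, from 37736 ± 1103 to 13527 ± 93.4 scaled counts (edgeR adjusted p = 3.36e-11), and was not among the rows of the RSL3 table.

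The calls on these pathway genes depended on the libraries and on the scaling. With RSL3, 15 genes of these lists other than the 5 were tested, of which 9 rose and 4 fell by limma (43.1% and 38.9% of all rows tested). On the recovered reads DESeq2 called 10 and 5, and edgeR 9 and 5. With limma, 0 of the 15 passed without DMSO replicate 2 (9 at an unadjusted p under 0.05), 0 without DMSO replicate 3 (9), and 0 when all annotated genes entered the adjustment (13). Without RSL3 replicate 2, 5 rose and 1 fell, and without RSL3 replicate 3, 4 rose and 1 fell. Rescaled over the listed genes, by either method, 6 rose and 4 fell. With ATOH8, 6 of 16 rose and 10 fell (41.4% and 58.6% of all rows tested). Under relative log expression scaling 6 rose and 4 fell, the lost calls being ones that had fallen. With all annotated genes in the adjustment 4 rose and 8 fell, LYL1, MAML3, BMP4 and DLL4 no longer passing.

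**Figure D5:**
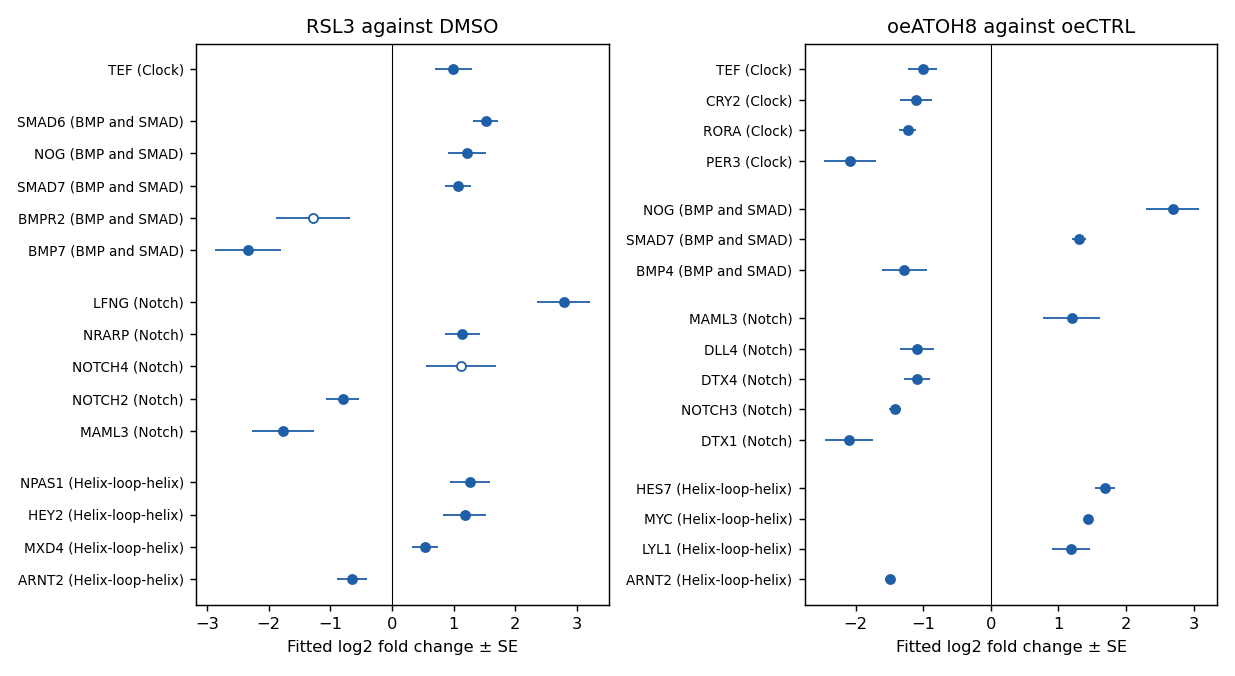
Log2 fold change (horizontal axis, with standard error) of the listed Notch, BMP and SMAD, clock and other helix-loop-helix genes in each experiment. Filled points passed the test and open points (BMPR2 and NOTCH4) did not; SMAD7 and NOG are to the right of 0 and ARNT2 to the left in both experiments, whereas MAML3 and TEF change sides.

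The genes whose pattern over the 6 libraries was most like that of each gene were found by the root mean square difference between their log2 ratios to the control mean, among rows with a mean of at least 50. For ID3 with RSL3 these were CRIP2 (0.0753), GNG11 (0.12) and BEAN1 (0.16), and for BHLHE40 they were P2RY6 (0.0748), SGPP2 (0.12) and TYMP (0.13). These rows carried the same replicate 1 extremes as ID3 and BHLHE40. ATOH8 had no such close match with RSL3: its nearest genes were AKR1C1 (0.63), CACNG4 (0.78) and KCNF1 (0.84). AKR1C1, an aldo-keto reductase, was 6.76-fold higher with RSL3 and 2.99-fold lower with ATOH8. TCF24 was nearest to CBLC (0.37), BCL2A1 (0.45) and TNS4 (0.55).

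With ATOH8, HES1 was nearest to CDH1 (0.14), SUSD2 (0.15) and CTRC (0.15), and BHLHE40 to TNXB (0.11), CEACAM6 (0.11) and FLVCR2 (0.13). ID3 was nearest to an assembled locus with no symbol (0.06), then PPDPF (0.07) and PDE4B (0.08), and TCF24 to ACVR1C (0.12) and H4C8 (0.20). ATOH8 itself stood away from every other row, its nearest being the globin genes HBB (1.29), HBA1 (2.32) and HBA2 (2.90), whose oeATOH8 values varied far more between libraries than those of ATOH8. All 6 libraries of a table share their scaling and control mean, so the likeness is a description of these rows.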

How the data were processed

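Total RNA from 12 DU145 libraries was sequenced. The submitters' processing notes name fastp, HISAT2, StringTie, DESeq2 and GRCh38, without versions or roles. The RSL3 table as deposited holds a normalised signal, counts divided by 1 size factor per library; every value gave a whole read within 0.001. The overexpression table as deposited by the authors holds raw read counts, its columns NC and OE being read as oeCTRL and oeATOH8. Both tables hold only genes the authors called changed.

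RSL3 rows are given by position, and 1772 of 1810 were named by overlap of at least 0.5 with RefSeq or GENCODE 29 genes on the same strand. They were tested with limma 3.58.1 on log2(value + 1), after removing low rows with edgeR's filter (count 10, total 15). The overexpression rows were tested with edgeR 4.0.16 (quasi-likelihood, R 4.3.3). Their libraries were scaled by median ratios within each group, and the groups were centred so that the empty gap between higher and lower genes was symmetric around 0 (its edges were −0.97 and 1.03 before), which assumes symmetric fold limits. P-values were Benjamini-Hochberg adjusted over the listed genes. The 5 genes, gene lists and tests were chosen with earlier results of these data known. Other genes named are all listed members of the helix-loop-helix, Notch, BMP and clock lists, markers, SCD, and the 3 genes most like each of the 5, of which 1 is not reported here. Fits were tested on simulated data. In the RSL3 experiment same-numbered replicates deviated together (correlations 0.614, 0.466 and 0.445), though replicates 2 and 3 did so across numbers as well (0.467 and 0.501).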

Additional observations from a re-analysis of the deposited data

How the results depend on the processing

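No gene of the set changed direction under any alternative. Other scalings shift all rows together: in the RSL3 experiment the median log2 fold change moved by −0.29 under trimmed mean (TMM) scaling and −0.31 under relative log expression (RLE) scaling over the listed genes, and in the overexpression experiment by 0.31 and 0.91. ATOH8 with RSL3 was then 3.32 and 3.30. With overexpression, under TMM and RLE in that order, HES1 was −2.61 and −2.0, BHLHE40 −2.30 and −1.70, and ID3 2.01 and 2.61; under RLE, ATOH8 was 13.88 and TCF24 −1.32. With a pseudocount of 5, TCF24 with RSL3 was −2.04. Without replicate 1 of both groups, BHLHE40 with RSL3 was −0.35 and ID3 1.48.

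The number of listed genes passing limma with RSL3 (1421, of which 52.6% were higher) was 926 under TMM (30.0% higher) and 898 under RLE (28.8% higher). It was 6 to 1500 when 1 library was left out and 1758 without replicate 1 of both groups. It was 6 without DMSO replicate 2, 8 without DMSO replicate 3, 352 without RSL3 replicate 2 and 317 without RSL3 replicate 3. It was 0 with all 59792 annotated genes counted as tests, where 1554 rows had an unadjusted p under 0.05; over the listed genes DESeq2 called 1727 and edgeR 1561. With the replicate block it was 1720, and BMPR2 was the pathway gene that gained a call. With overexpression 1424 genes passed (41.4% higher), 1007 under RLE (58.5% higher), 1167 with 75204 tests counted and 1424 with the replicate block, where same-numbered deviations correlated at 0.0573, 0.0482 and 0.0879 and the numbers were not taken as pairs. For the pathway genes outside the set, recomputed under each alternative, 144 values kept a call with RSL3, 64 lost it, 7 gained one and 25 stayed without one; with overexpression 212 kept it and 12 lost it. Depth limits TCF24, BMP7, MAML3, HEY2, LFNG and NOTCH4 in the RSL3 experiment, ATOH8 and NOG in oeCTRL, and DTX1 in oeATOH8.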

Other observations

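The control libraries of the experiments differed from each other in the balance of these genes. The ID3 to BHLHE40 ratio per kilobase was 5.06 ± 0.09 in DMSO and 0.923 ± 0.067 in oeCTRL (SD, n = 3). The ATOH8 to TCF24 ratio was 0.488 ± 0.076 in DMSO and 0.0202 ± 0.0081 in oeCTRL (SD, n = 3), where ATOH8 had 13, 10 and 4 reads. The difference was not tested, because the tables were made separately and with different gene models, and culture, construct and experiment cannot be told apart. AKR1C1 was higher with RSL3 and lower with ATOH8, and passed in both tables. TEF, also higher with RSL3 and lower with ATOH8, and MAML3, the reverse, passed in both as well, but those calls were lost under some alternatives: TEF under relative log expression scaling with ATOH8 and in 5 of the 6 single-library omissions with RSL3, and MAML3 without replicate 2 of either group with ATOH8 and in 4 of the 6 omissions with RSL3. With all annotated genes in the adjustment, none of the 3 passed with RSL3, and MAML3 did not pass with ATOH8.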
